A study of Homo sapiens with 8 samples.

Results

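Galectins are lectins that bind β-galactoside sugars on cell surface and secreted glycoproteins, and heavily glycosylated mucins such as MUC4 are among the molecules they can bind. The genes described here were LGALS1, LGALS2, LGALS3, LGALS4, LGALS8 and LGALS9, which encode galectins, and LGALS3BP, which encodes the secreted galectin-3 binding protein. They were chosen by gene symbol, through the accession that each array probe carries. These 7 genes had 8 of the 41000 probes on the array (LGALS8 had 2), and 25398 probes carried a symbol, of 17240 genes in all.

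Galectins are sorted by how many sugar-binding domains they hold. LGALS1 and LGALS2 have a single domain and act as dimers, LGALS3 carries its domain behind a repetitive tail through which it forms oligomers, and LGALS4, LGALS8 and LGALS9 join a pair of different domains in one chain. LGALS3BP is itself a glycoprotein ligand of LGALS3 and of integrins. In epithelial tumour cells, galectins are known for cross-linking receptors and mucins at the cell surface, for cell adhesion, and, for LGALS9 and LGALS3BP, for their induction by interferons.

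RNA came from CAPAN-2, an established human pancreatic adenocarcinoma cell line, and was measured on 8 Agilent 2-colour arrays. On 4 arrays, a clone stably transfected with a puromycin-selected vector encoding an shRNA against ErbB2 (ErbB2-KD, each array a different clone by the labels) was set against a pool of 4 clones carrying the empty vector (NT). On the other 4, RNA labelled MUC4-KD, from clones made by retroviral infection with a G418-selected plasmid targeting MUC4, was set against a pool of 4 empty vector clones (Mock). The methods describe separate clones for each knockdown, but the labels do not name those of MUC4-KD, so it is not known here that each array holds a different one, and p-values then measure only the spread between arrays. NT and Mock thus differ in vector, delivery and drug. Each pool is a single control sample read on 4 arrays, and the tests leave out the spread between control clones.

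By the labels, Cy5 marked the knockdown on ErbB2-KD arrays 1 and 2 and MUC4-KD arrays 3 and 4, and Cy3 on the rest. In a channel, 56.7% to 74.2% of the probes were well above background, and no spot was saturated. Precision is limited by having 4 arrays a group. The median SD of a log2 ratio between arrays was 0.30 among the ErbB2-KD arrays and 0.28 among those of MUC4-KD. The array MUC4-KD4 correlated with the others of its group at 0.32 to 0.52 over all probes, and those 3 with each other at 0.67 to 0.83. The epithelial markers KRT7, KRT8, KRT18, KRT19, EPCAM and CDH1 were well above background in every channel (6 of 6 genes). Of the markers of other cell types on the array, 0 of 4 fibroblast, 1 of 5 leukocyte (CD14) and 0 of 4 endothelial genes were so.

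The targeted genes were looked at first. ERBB2 (probe A_23_P89249) had log2 ratios of -0.58, -0.32, -0.33 and -0.38 on ErbB2-KD arrays 1 to 4, lower on 4 of 4, with limma's adjusted p of 0.145. A dimmer ERBB2 probe (A_24_P284420) had 0.04, 0.03, 0.06 and 0.01, averaging 0.04 (limma, adjusted p = 0.897). Their mean log2 signals were 12.4 and 7.41. MUC4 (probe A_24_P208825) had log2 ratios of 1.71, 2.34, 2.21 and 1.08 on MUC4-KD arrays 1 to 4, so it was higher in the RNA labelled MUC4-KD, by 1.84 ± 0.57 (SD, n = 4, limma adjusted p = 0.00804). Another of its 4 probes was called, also as higher. The brightest (A_24_P239176) averaged 0.27 and A_24_P239177 averaged 0.41. Each of these was below 0 on array 4, and neither passed (limma, adjusted p = 0.167 and 0.0984). The called direction goes against the label, and it is also opposite to the direction of the study's own gene list. The ratios of this experiment given below therefore compare RNA labelled MUC4-KD with RNA labelled Mock. They would change sign if the labels were exchanged, while the ratios of ErbB2-KD over NT would not. The differences between the knockdowns would then take other values, given below, and not all would change sign.

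LGALS1, LGALS3, LGALS8, LGALS9 and LGALS3BP were measurable in both experiments, and LGALS2 and LGALS4 were near background. LGALS9 and LGALS3BP were the members called lower in RNA labelled MUC4-KD. LGALS4, which was not tested, was also below 0 there on 4 of 4 arrays. The promoters of LGALS9 and LGALS3BP are shown because, among member windows, only theirs held the core letters of an interferon-stimulated response element. These letters are GAAA, any 2 bases, then GAAA again. Both stretches are from RefSeq on GRCh38.p14, run 5′ to 3′ on the strand of the gene from 100 bases before its start to 10 after it, and have the matching letters in capitals. LGALS9 lies on the plus strand, chr17:27631088-27631197, and its match reads on the opposite strand from position -9 to 1. LGALS3BP lies on the minus strand, chr17:78979914-78980023, with its match from -58 to -49.
LGALS9: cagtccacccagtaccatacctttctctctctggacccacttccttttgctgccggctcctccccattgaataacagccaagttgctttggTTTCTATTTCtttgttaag
LGALS3BP: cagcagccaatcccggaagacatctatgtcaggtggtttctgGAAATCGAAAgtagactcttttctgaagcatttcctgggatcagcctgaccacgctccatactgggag

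On both strands of windows of 300 bases (250 before the start and 50 after), this element was found in 3.57% of 35116 RefSeq promoters. It was in 2 of the 8 windows that 6 of the 7 genes had in this table, LGALS1 having no entry. The letters of the AP-1 site TGANTCA (7.71% of all windows) were in none of the 8. The GC box GGGCGG (45.0%) was in the windows of LGALS3 and of LGALS8, and TATAAA (11.5%) was in 1 window of LGALS8. No other motif searched was found in the 8 windows. None of these motifs overlapped another in these windows. Such a match describes the letters only.

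LGALS1, a single-domain galectin, was higher in RNA labelled MUC4-KD than in Mock. On a scale set equal over the 8 arrays, its normalised signal on arrays 1 to 4 was 109700, 121100, 70790 and 70660 in RNA labelled MUC4-KD and 42880, 40040, 35470 and 36110 in Mock. Every value of the former was above every value of the latter, with the arrays that had MUC4-KD in Cy3 (1 and 2) above those that had it in Cy5. The log2 ratios were 1.36, 1.60, 1.00 and 0.97, on average 1.23 ± 0.30 (SD, n = 4, 95% interval 0.88 to 1.58), or 2.34-fold higher (limma, adjusted p = 0.00749). Without array 3 the mean was 1.31 and the call was lost (adjusted p = 0.0613), as it was with median centring in place of loess (1.45, adjusted p = 0.523). In bulk RNA, more cells expressing a gene and more of its RNA per cell cannot be told apart.

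In the ErbB2 experiment, the LGALS1 signal was 81680, 48280, 93430 and 122900 in ErbB2-KD and 52520, 61770, 65980 and 59600 in NT. Clone 2 was below its control and the other 3 above, so the groups overlapped. The log2 ratios of 0.64, -0.36, 0.50 and 1.04 averaged 0.46 ± 0.59 (SD, n = 4, 95% interval -0.11 to 1.02), which did not pass the test (limma, adjusted p = 0.368). The SD of LGALS1 between the ErbB2-KD clones was above the median of all probes in that experiment. LGALS2, the other single-domain galectin, was well above background on 2 of 4 arrays for ErbB2-KD and for NT, on 1 for MUC4-KD and on none for Mock, and was not tested.

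LGALS3, the galectin with the oligomerising tail, had a normalised signal of 23500, 18980, 30480 and 22120 in ErbB2-KD against 17980, 18450, 16770 and 16630 in NT. All the ErbB2-KD values were above all the NT values, with clone 3 the highest and clone 2 almost level with its control. The mean log2 ratio was 0.43 ± 0.34 (SD, n = 4, limma unadjusted p = 0.0340, adjusted p = 0.233). In the other experiment the LGALS3 signal lay between 14110 and 15660 in RNA labelled MUC4-KD and between 11750 and 15220 in Mock. These ranges overlapped, and the log2 ratios of 0.18, 0.35, 0.26 and 0.03 averaged 0.21 ± 0.13 (SD, n = 4, 95% interval -0.06 to 0.47, limma adjusted p = 0.210). The LGALS3 ratio was thus above 0 on all arrays of both experiments and passed the test in neither.

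LGALS3BP, the ligand of LGALS3, was lower in RNA labelled MUC4-KD than in Mock. Its normalised signal on arrays 1 to 4 was 1876, 1955, 2004 and 2232 in RNA labelled MUC4-KD and 5208, 4570, 6787 and 4492 in Mock. The 2 sets were far apart, with the labelled knockdowns close to each other and most of the spread in the readings of the pool. The log2 ratios of -1.47, -1.22, -1.76 and -1.01 gave -1.37 ± 0.32 (SD, n = 4, 95% interval -1.73 to -1.0), or 2.58-fold lower (limma, adjusted p = 0.00636). Without array 3 it was -1.24 (adjusted p = 0.0588), and with median centring -1.22 (adjusted p = 0.637), neither of which passed. In ErbB2-KD the LGALS3BP signal was 3331, 2029, 2477 and 2967, and in NT 3836, 3404, 3084 and 3238. The ratio was below 0 on all 4 arrays, the farthest on array 2, but the channel values of the groups overlapped. The mean log2 ratio was -0.35 ± 0.28 (SD, n = 4, limma unadjusted p = 0.0476, adjusted p = 0.271).

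**Figure D1:**
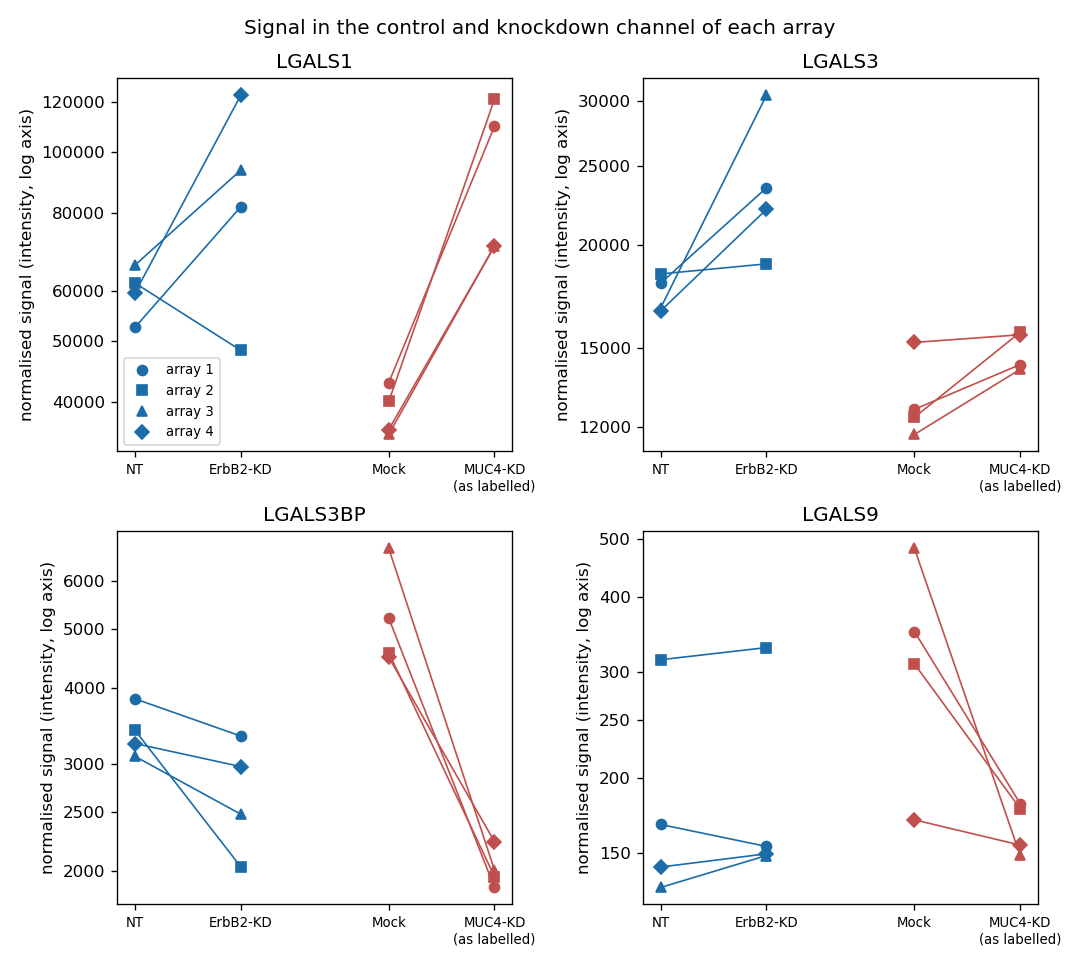
Normalised signal (intensity, log axis) of LGALS1, LGALS3, LGALS3BP and LGALS9 in the control and knockdown channel of each array; a line joins the channels of 1 array and the marker gives its number. LGALS1 rises and LGALS3BP falls from Mock to RNA labelled MUC4-KD on all 4 arrays, while LGALS9 lies between 131.2 and 181.1 except in Mock on arrays 1 to 3 and in both channels of ErbB2-KD array 2.

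LGALS8 and LGALS9, of the galectins with paired domains, were measurable, and LGALS4 was near background. LGALS8, known for binding damaged endosomes as well as integrins, was read by 2 probes. The brighter (A_23_P63017) had log2 ratios of 0.14, 0.23, 0.95 and 0.70 in ErbB2-KD and the dimmer (A_23_P63026) 0.54, 0.52, 0.57 and 0.27. Both were above 0 on all 4 arrays, with means of 0.51 ± 0.38 and 0.48 ± 0.14 (SD, n = 4). The dimmer had the smallest unadjusted p of the members in that experiment, 0.00541, and neither passed over all probes (limma, adjusted p = 0.201 and 0.114). In RNA labelled MUC4-KD the brighter gave 0.55, 0.24, 0.30 and -0.06 and the dimmer 0.24, -0.10, 0.61 and 0.56. Each was below 0 on 1 array, a different one, and the means of 0.26 ± 0.25 and 0.33 ± 0.33 did not pass (limma, adjusted p = 0.193 and 0.161).

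LGALS9, an interferon-inducible galectin, was dim. In RNA labelled MUC4-KD its log2 ratios were -0.95, -0.80, -1.70 and -0.14, lower on 4 of 4 arrays, with array 3 the farthest from 0 and array 4 the nearest. The mean was -0.90 ± 0.64 (SD, n = 4, 95% interval -1.50 to -0.30), or 1.86-fold lower (limma, adjusted p = 0.0499). This call lay at the threshold. It was lost in 8 of 14 alternatives and without array 1, 2 or 3 (-0.88, -0.93 and -0.63, adjusted p = 0.161, 0.136 and 0.174), and kept without array 4 (-1.15, adjusted p = 0.0105). In ErbB2-KD the LGALS9 log2 ratios were -0.12, 0.07, 0.18 and 0.07, on average 0.05 ± 0.12 (SD, n = 4), far from the threshold (limma, adjusted p = 0.867). LGALS4, a galectin of the digestive tract epithelium, was well above background on 3 of 4 arrays for ErbB2-KD, NT and Mock and on none for RNA labelled MUC4-KD. It was not tested. The mean log2 signals were 7.18 in Mock and 7.0 in RNA labelled MUC4-KD. With the latter taken as an upper limit, LGALS4 would be at least 1.13-fold higher in Mock. This bound equals the observed ratio of a probe near background and carries no test. The log2 ratios of the Feature Extraction software for LGALS4 in RNA labelled MUC4-KD were -1.02, -0.66, -1.96 and -1.23. Its size thus depended on how the dim signal was treated. On array 4 LGALS4 was not well above background in Mock either, at a normalised signal of 125.3 against 123.8.

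**Figure D2:**
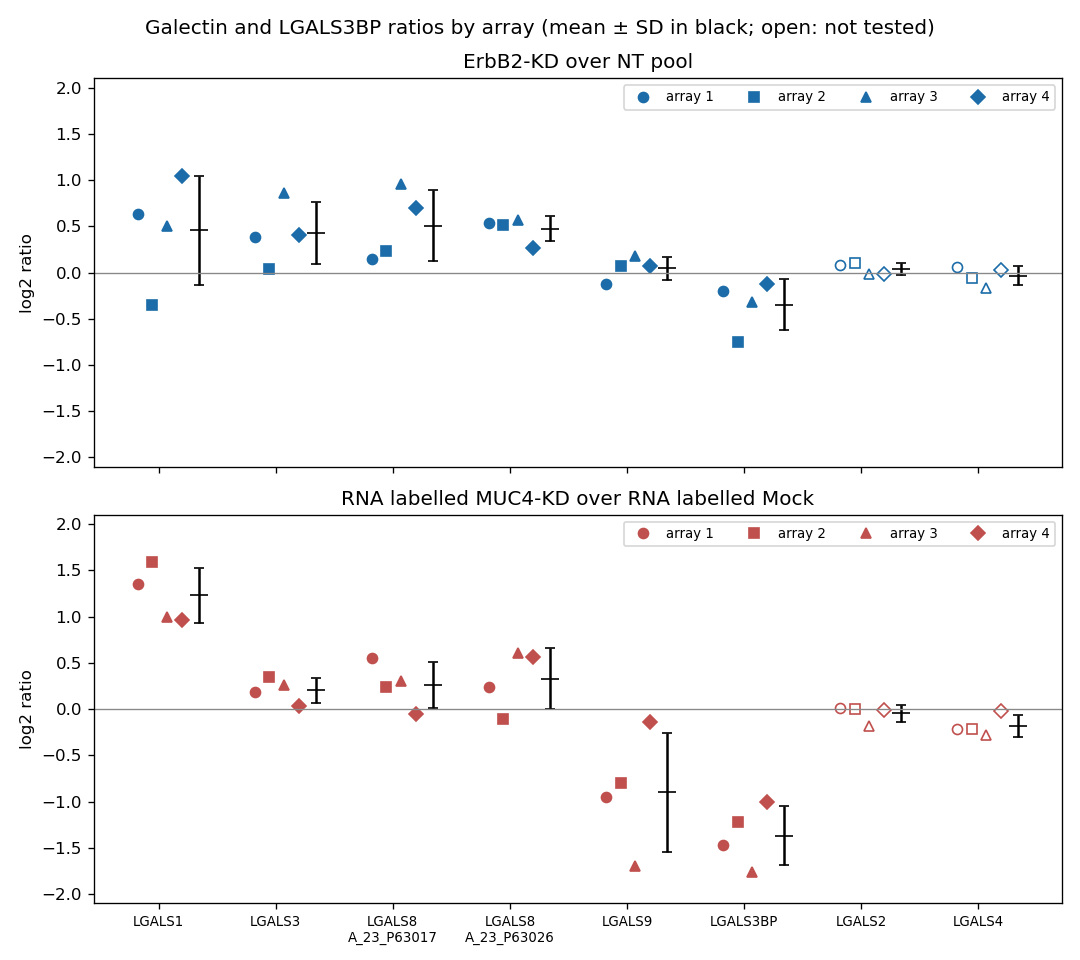
Log2 ratio of labelled knockdown over control for each of the 8 probes on arrays 1 to 4 of each experiment, with the mean ± SD (n = 4) in black and open markers for the untested LGALS2 and LGALS4. In the lower panel LGALS1 lies at 0.97 to 1.60 and LGALS3BP at -1.76 to -1.01, and in the upper panel the ratios of LGALS1 range from -0.36 to 1.04.

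The value of LGALS9 depended on how the dim signal was treated. After normexp and loess, the 6080 probes that were above background on no array had a median signal of 64.1 to 68.8 on 5 arrays. It was 167 on ErbB2-KD array 2, 207 on ErbB2-KD array 4 and 382 on MUC4-KD array 4. The LGALS9 signal on MUC4-KD array 4 was 99.0 in the RNA labelled MUC4-KD and 141 in Mock before correction, over local backgrounds of 28.0 and 35.0. With the log ratios of the Feature Extraction software, which subtracts its own background, the log2 ratios of LGALS9 were -1.45, -1.33, -2.61 and -2.47, and the mean was -1.96 (limma, adjusted p = 0.00598). On array 4, LGALS9 thus went from the smallest change of the 4 arrays to nearly the largest. In ErbB2-KD the same software gave LGALS9 log2 ratios of -0.03, 0.06, 1.06 and 0.92, averaging 0.50 (limma, adjusted p = 0.329).

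LGALS9C, a near-identical copy of LGALS9, was read by a pair of probes named by their accession, and whether they measure LGALS9, LGALS9C or both is uncertain. The brighter (A_32_P452655) had log2 ratios of -1.34, -1.02, -1.50 and -1.58 in RNA labelled MUC4-KD, including array 4, and averaged -1.36 ± 0.25 (SD, n = 4, limma adjusted p = 0.00487). The dimmer (A_23_P101025) gave -0.85, -0.69, -1.61 and -0.36, and averaged -0.88 ± 0.53 (SD, n = 4, limma adjusted p = 0.0379). Both were thus lower on 4 of 4 arrays, as the LGALS9 probe was. In ErbB2-KD the LGALS9C means were 0.52 ± 0.29 and 0.10 ± 0.14 (SD, n = 4, limma adjusted p = 0.150 and 0.696). The LGALS9C difference, MUC4-KD minus ErbB2-KD in log2 ratio, was -1.88 and -0.98 for these probes (limma, adjusted p = 0.00220 and 0.0413).

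**Figure D3:**
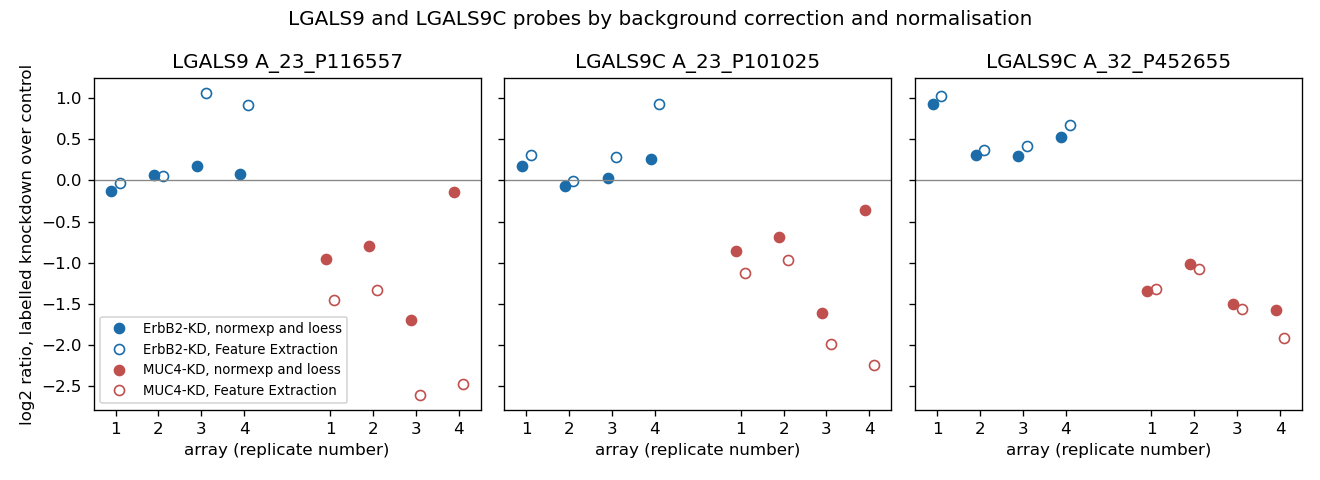
Log2 ratio of labelled knockdown over control for the LGALS9 probe and the 2 LGALS9C probes on each array, after normexp and loess (filled) and as given by Feature Extraction (open). On MUC4-KD array 4 the LGALS9 ratio is -0.14 by the first and -2.47 by the second, while the brighter LGALS9C probe lies at -1.58 and -1.92.

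Counted over the members, 0 of 6 probes tested were called in ErbB2-KD, where 1.43% of all 23869 probes tested were, and 4 of the 6 had an unadjusted p under 0.05, as had 4307 of all probes tested. In RNA labelled MUC4-KD 3 of 6 were called, beside 20.5% of all 25047. LGALS1 was the 1 called higher (12.0% of all probes) and LGALS3BP and LGALS9 the 2 called lower (8.48%). The median log2 ratio of the 5 genes tested was 0.43 in ErbB2-KD and 0.21 in RNA labelled MUC4-KD, against -0.01 and 0.01 over all probes.

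Whether the ratios differed between the knockdowns was tested over all 8 arrays. The difference here is the log2 ratio in MUC4-KD minus that in ErbB2-KD, each against its own pool and as labelled. LGALS3BP differed by -1.02 (95% interval -1.49 to -0.55, limma adjusted p = 0.0217), and it was the 1 of 6 member probes called, where 9.91% of all 25835 probes were. Without ErbB2-KD array 1, 3 or 4 or MUC4-KD array 1 or 3 the call was lost, at -1.01 to -0.89 (adjusted p of 0.0507 to 0.0678). Each slide held arrays of both experiments, and within slides 1, 2 and 3 the LGALS3BP difference was -0.96, -0.26 and -1.49. LGALS9 differed by -0.95 (95% interval -1.60 to -0.30, limma adjusted p = 0.0680) and LGALS1 by 0.77 (0.12 to 1.43, adjusted p = 0.120), so neither passed. Within slides these were -0.83, -0.21 and -1.40 for LGALS9 and 1.03, 1.32 and 0.13 for LGALS1, of one sign each. LGALS3 differed by -0.22 (-0.65 to 0.21), and the LGALS8 probes by -0.25 (-0.74 to 0.25) and -0.15 (-0.57 to 0.28). If the MUC4-KD labels were exchanged, the difference would be 1.71 for LGALS3BP, -1.69 for LGALS1 and 0.85 for LGALS9. Then 5 of the 6 probes would be called, all but LGALS9, beside 4433 of all 25835 probes.

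**Figure D4:**
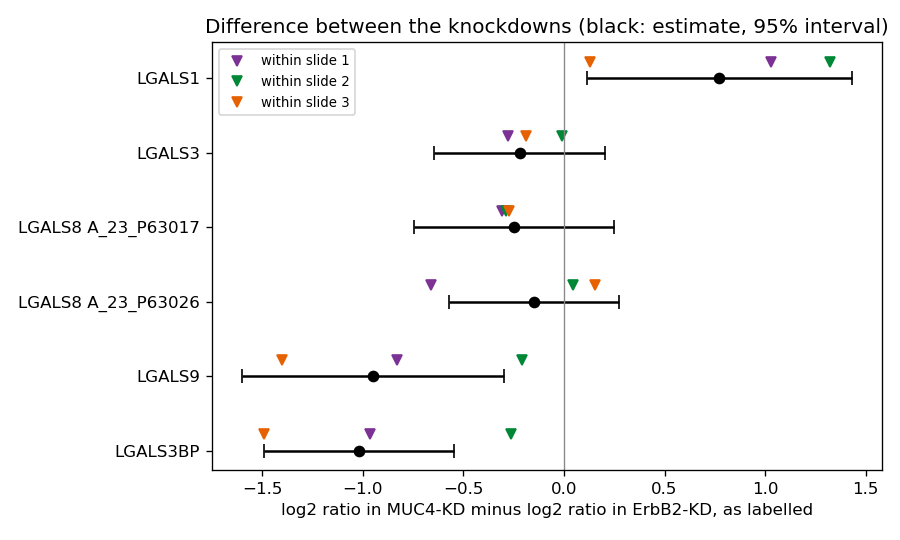
Difference between the log2 ratio in MUC4-KD and that in ErbB2-KD, as labelled, for the 6 probes tested (black point, 95% interval of the limma fit) with the difference within each of the 3 slides (triangles). The intervals of LGALS1, LGALS9 and LGALS3BP lie on 1 side of 0, and all 3 within-slide values of LGALS3BP, -0.96, -0.26 and -1.49, are below 0.

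By the labels, the levels of the control pools were not alike. LGALS3BP had a normalised signal of 3084 to 3836 in NT and 4492 to 6787 in Mock, and LGALS1 52520 to 65980 in NT and 35470 to 42880 in Mock. For both genes the readings of the pools did not overlap. If the MUC4-KD labels were exchanged, Mock would read 1876 to 2232 for LGALS3BP, below NT, and 70660 to 121100 for LGALS1, above NT. As labelled, the gap between the pools was wider for the brighter LGALS9C probe, at 663 to 844.4 in NT, 822.2 to 1470 in ErbB2-KD, 2703 to 2999 in RNA labelled MUC4-KD and 5836 to 8081 in Mock. For LGALS3, by contrast, every ErbB2-KD and NT reading, from 16630 to 30480, was above every MUC4-KD and Mock reading, from 11750 to 15660. These are readings of 1 pool each, with no test, and a difference between the pools cannot be told apart from one of vector, delivery or drug.

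Of the 8 other galectin genes on the array, 4 were tested, and CLC, LGALS12, LGALS13 and LGALS14 were too dim. For the difference between the knockdowns 2 of the 4 were called, LGALS9C, given above, and LGALS7, beside 9.91% of all 25835 probes. LGALS7, a galectin of stratified epithelia, had mean log2 ratios of 0.56 ± 0.38 in ErbB2-KD and -0.32 ± 0.23 in RNA labelled MUC4-KD (SD, n = 4, limma adjusted p = 0.169 and 0.116). Its difference of -0.88 passed (limma, adjusted p = 0.0371), although its near-identical copy LGALS7B, at -0.69, did not (adjusted p = 0.0615). The probes of LGALSL disagreed, with -0.43 and 0.37 in RNA labelled MUC4-KD, neither past the test.

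Genes that work with galectins were taken as lists. Of the binding partners, 15 of 22 on the array were tested. In ErbB2-KD 0 were called (7 at an unadjusted p under 0.05, beside 4307 of all 23869 probes). In RNA labelled MUC4-KD 5 were higher and 0 lower, beside 12.0% and 8.48% of all 25047 probes. The median log2 ratio of the 15 was 0.27. The largest were CD44, the hyaluronan receptor, at 1.74 (limma, adjusted p = 0.00200), EGFR, the epidermal growth factor receptor, at 1.45 (adjusted p = 0.00404), and the integrin subunits ITGA5 and ITGA6 at 1.30 and 1.13 (adjusted p = 0.0192 and 0.00603). EGFR and ITGA5 also differed between the knockdowns, by 2.58 and 1.72 (limma, adjusted p = 0.0149 and 0.0360).

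Of the enzymes that build or cap galectin ligands, 11 of 14 were tested in each experiment, with median log2 ratios of 0.23 in ErbB2-KD and 0.08 in RNA labelled MUC4-KD. In ErbB2-KD 2 were lower and 0 higher, where 1.43% of all 23869 probes were called in either direction. MGAT3, which adds the bisecting N-acetylglucosamine, was at -1.51 (limma, adjusted p = 0.0303). ST6GAL1, whose α2,6-sialic acid blocks the binding of many galectins, was at -0.84 (limma, adjusted p = 0.0455). MGAT3 was well above background on 4 of 4 arrays in NT but on 2 of 4 in ErbB2-KD, so the size of its ratio rests in part on dim signal. In RNA labelled MUC4-KD ST6GAL1 was the 1 called, at -1.14 (limma, adjusted p = 0.0130), beside 20.5% of all 25047 probes. MGAT5, which makes the branched N-glycans that LGALS3 favours, was not tested.

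Interferon-stimulated genes were listed because LGALS9 and LGALS3BP are known to respond to interferons. In RNA labelled MUC4-KD 21 of 23 tested were lower and 0 higher, beside 8.48% and 12.0% of all probes, with a median log2 ratio of -2.20. In ErbB2-KD 2 were lower and 0 higher, beside 1.43% of all probes called in either direction, with a median of -1.05. There 17 of the 23 had an unadjusted p under 0.05 (limma), beside 4307 of all 23869 probes. MX2 (-3.99), OASL (-3.95), IFIT1 (-3.30) and IFIT3 (-3.22) were the farthest from 0 in RNA labelled MUC4-KD (limma, adjusted p = 0.000988, 0.00138, 0.00232 and 0.0292). In ErbB2-KD IFI44L was at -3.15 (limma, adjusted p = 0.0366), with its ErbB2-KD channel well above background on 2 of 4 arrays and its NT channel on 4 of 4. Between the knockdowns 9 differed, all lower in MUC4-KD, beside 9.91% of all 25835 probes called in either direction. LGALS3BP and LGALS9, whose promoter stretches are printed above, were lower in RNA labelled MUC4-KD, as this list was, by less. In ErbB2-KD, where the list had a median of -1.05, LGALS3BP averaged -0.35 and LGALS9 0.05, and neither passed. The part of interferon signalling in their values was not tested.

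Over the 8 ratios, the genes whose pattern was nearest to a member's were sought among 11683 genes by the root mean square difference in log2 ratio, as a description. Nearest to LGALS1 were CAPN2 (0.21), RAB8B (0.25) and C16orf74 (0.26). Nearest to LGALS3BP were SARS1 (0.18), SLC1A4 (0.21) and PARP6 (0.23). Nearest to LGALS9 were ADM5 (0.15), PPAN-P2RY11 (0.18) and NAPA (0.19), each with its MUC4-KD ratio nearest to 0 on array 4.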

How the data were processed

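The authors hybridised Cy3- and Cy5-labelled cRNA to Agilent 44K arrays and deposited the Feature Extraction output (10.5 per the labels), from which the median spot and background intensity of each channel were used. The deposited log10 ratio of Cy5 over Cy3, after the software's own background subtraction and dye normalisation, served as an alternative. The deposited value table held the same log10 ratios, turned to labelled knockdown over control (within 5e-06), with column medians of 0, and was not used further. The authors normalised and tested with GeneSpring.

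Here, in R 4.3.3 with limma 3.58.1, the 43376 spots were corrected by normexp (offset 50), normalised by loess within arrays with control and outlier spots at weight 0, turned to labelled knockdown over control, and averaged to 41000 probes, without outlier spots. Tested probes were those with all 4 spots of the knockdown channel, or all 4 of the control channel, well above background. For each experiment lmFit and eBayes compared the mean log2 ratio with 0 (Benjamini-Hochberg adjusted p under 0.05), and the difference over all 8 arrays. Channel signals were put on one scale by quantile normalisation of the average intensities (Aquantile). The bound for LGALS4 sets the mean of Mock, measured on 3 of 4 arrays, against the higher of the lowest probe well above background and its own signal on each array. A gene with several probes is led by the brightest. Probes were named through RefSeq accessions: 15602 had no symbol.

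The genes, lists and motifs were chosen with earlier results of these data known. All members were named, with the targets, the other galectins, at most 4 called genes per list and comparison, and the 3 most alike genes per called member. One listed gene and the letters of 1 motif searched are not reported here. The steps were tested on simulated data. Alternatives were the normexp offset, Feature Extraction ratios, median centring, the dim-probe filter, a dye term, slide and replicate blocks, intensity trend, 1 spread over all arrays, the methods' t-test, 2-fold at an unadjusted p under 0.01, the mean of a gene's probes, paired arrays averaged, and each array left out. The interval level was 95%.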

Additional observations from a re-analysis of the deposited data

Results flagged for a closer look

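The LGALS3BP ratio differed between the knockdowns by the test of the difference itself, -1.02 on the log2 scale (limma, adjusted p = 0.0217), being lower on 4 of 4 arrays in each experiment. The call was lost in 5 of the 8 fits that left out 1 array, with values from -1.15 to -0.89 over the 8. No array of any member tested stood apart from the other 3 of its group by Dixon's test.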

How the results depend on the processing

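The called directions of LGALS1, LGALS3BP and LGALS9 in RNA labelled MUC4-KD held in all alternatives run. Of 6 member probes, 3 were called there, but 0 with median centring in place of loess and 0 with the methods' t-test after Benjamini-Hochberg adjustment. With 1 array left out it was 0 to 3, the 0 without array 3 (limma, LGALS1 adjusted p = 0.0613, LGALS3BP 0.0588). Calls over all probes fell as well, from 5131 of 25047 to 1 with median centring and 106 with that t-test. Without array 3 they were 155 of 25219. In ErbB2-KD 0 were called, and 1 (LGALS8, A_23_P63026) by the methods' t-test at an unadjusted p under 0.05, beside 3176 of all 23869 probes. Leaving out arrays gave 0 throughout. For the difference, the count of 1 became 2 with Feature Extraction log ratios (LGALS9, -2.47, limma adjusted p = 0.00374), 0 with median centring, and 0 with the replicate number as a block (LGALS3BP adjusted p = 0.0661). Over all 25835 probes these fits called 4076, 117 and 584, beside 2559 in the main fit. Same-numbered arrays deviated with correlations of -0.23 to -0.04. By the labels they had the knockdown in opposite dyes, so these correlations cannot decide whether the numbers pair the arrays. Leaving out 1 array gave 0 to 2: 0 without ErbB2-KD 1, 3 or 4 or MUC4-KD 1 or 3, and 2 without MUC4-KD 4. Median centring also put the LGALS3 difference at 0.0185 and that of LGALS8 (A_23_P63026) at 0.025, turning their sign. Turning the sign of all MUC4-KD ratios, an alternative chosen after seeing the data, gave 5 calls for the difference, beside 4433 of all 25835 probes. These were LGALS3BP 1.71, LGALS1 -1.69, LGALS3 -0.63 and LGALS8 -0.77 and -0.80, with LGALS9 at 0.85 not called. The causes were not tested. Averaging arrays 1 with 3 and 2 with 4 left 2 calls, LGALS1 and LGALS3BP. Dim probes (LGALS2, LGALS4, LGALS9) are limited by signal over background, and 4 arrays with 1 pool limit the rest.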
